A study of Mus musculus with 24 samples.

Results

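Retinoic acid synthesis and receptor genes were followed over the day in 2 tubule segments of the mouse kidney. The set has 9 genes: the retinol dehydrogenase Rdh10, the retinal dehydrogenases Aldh1a1, Aldh1a2 and Aldh1a3, the retinoic acid receptors Rara, Rarb and Rarg, the retinoid X receptor Rxra, and Crabp2, which carries retinoic acid inside the cell. The genes were chosen by name for their roles, with earlier results of these data known. All 9 of 9 were measured, out of 18194 genes in all, by 15 of 34958 probe sets that name a single gene. Where a gene had several probe sets, the brightest on average stands for it, and the others are given beside it.

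The RNA came from microdissected distal convoluted tubules pooled with connecting tubules (DCT/CNT), and from cortical collecting ducts (CCD). Tubules were dissected after collagenase treatment from left kidneys of male C57BL/6J mice of 25 to 30 g, on chow and with 12 h of light and 12 h of darkness. Mice were killed at 6 times, every 4 h from lights on, named by zeitgeber time (ZT, h after lights on): ZT0, ZT4 and ZT8 in the light, ZT12 at lights off, and ZT16 and ZT20 in the dark. Each of the 12 groups of a segment and a time held 2 arrays, each of 1 RNA pool, with RNA of 5 animals per time, and 10 ng of RNA was amplified per array. All groups share strain, sex, housing and dissection, and there was no treatment. The labels do not give ages, and they do not say whether the 2 pools of a time hold different animals or whether both segments came from the same mice. The p-values below thus rest on how pools differ, which may be technical.

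Retinoic acid is a hormone-like product of vitamin A. Retinol dehydrogenases such as Rdh10 oxidise retinol to retinal, the Aldh1a enzymes oxidise retinal to retinoic acid, and the Cyp26 enzymes break it down. Retinoic acid binds RAR proteins, which sit with an RXR partner on direct repeats of a short motif in DNA, and signalling through them shapes the branching collecting duct tree in the developing kidney.

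Promoter sequences of 3 members are shown, credited to RefSeq (build GRCm38.p6), each the 250 bases before an annotated transcript start. They belong to Aldh1a1, which had the largest segment difference among the members, to Aldh1a2, which differed the other way, and to Rarb, the member whose window held a direct repeat. Capitals mark the 6-base receptor motif AGGTCA, or a variant spelled AGTTCA, another spelled GGGTCA or the variant spelled GGTTCA, on either strand.
Aldh1a1, second of its windows, chr19:20601718-20601967, plus strand: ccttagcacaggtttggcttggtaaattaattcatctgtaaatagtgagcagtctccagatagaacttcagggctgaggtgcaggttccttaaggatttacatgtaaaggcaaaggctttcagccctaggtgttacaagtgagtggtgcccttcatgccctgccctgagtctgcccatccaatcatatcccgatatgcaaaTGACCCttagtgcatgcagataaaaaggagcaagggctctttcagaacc
Aldh1a2, chr9:71215539-71215788, plus strand: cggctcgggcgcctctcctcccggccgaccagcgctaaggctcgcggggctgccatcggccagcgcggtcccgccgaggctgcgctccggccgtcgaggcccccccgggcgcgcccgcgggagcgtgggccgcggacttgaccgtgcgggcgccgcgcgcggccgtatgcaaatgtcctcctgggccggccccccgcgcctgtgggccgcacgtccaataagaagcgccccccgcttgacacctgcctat
Rarb, chr14:16575477-16575726, minus strand: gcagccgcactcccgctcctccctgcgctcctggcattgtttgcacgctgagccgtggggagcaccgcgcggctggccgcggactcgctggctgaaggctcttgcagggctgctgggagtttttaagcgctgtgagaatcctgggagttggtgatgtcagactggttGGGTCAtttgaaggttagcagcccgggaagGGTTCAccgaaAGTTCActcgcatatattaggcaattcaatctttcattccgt
RefSeq promoter windows were found for 6 of the 9 members, 12 windows in all, and none was used for Aldh1a3, Rdh10 and Crabp2. The motifs were searched as direct repeats with 1, 2 or 5 bases between them, on both strands, in windows that also hold the 50 bases after the start. Only the Rarb window held such a repeat, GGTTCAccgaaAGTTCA, with a spacer of 5 bases, at chr14:16575513-16575529, which is 53 to 37 bases before the start. Of all 32851 windows, 0.0974% held a repeat with that spacer and 0.588% held any of the 3 kinds. Single motifs were common: 6 of the 12 member windows held at least 1, against 43.7% of all windows. The shown Aldh1a1 sequence had a GC content of 46.4% and 1 CpG, and the Aldh1a2 sequence 77.6% and 40 CpG. A match describes the letters only, and no binding was measured here.

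Array medians over all probe sets lay between 5.80 and 5.89 log2 units, and the 2 pools of a group correlated with r of 0.988 to 0.995 across genes. Most segment markers went with the labels. The sodium chloride cotransporter Slc12a3 was 5.62 log2 units higher in DCT/CNT, relative to the median gene. The water channels Aqp2 and Aqp4 were lower by -2.17 and -3.34. In the segment test given below, 8 of 9 DCT markers were called higher in DCT/CNT and 1, Sgk1, lower by -0.76. All 10 principal cell markers were called lower, though Hsd11b2 lay at 0.04 relative to the median gene. Of 8 thick ascending limb markers, 5 were called higher and 2 lower. The spread of values was narrower in DCT/CNT, with an interquartile range of 3.32 to 3.65 log2 units per array against 4.08 to 4.28 in CCD. Dim genes leaned towards DCT/CNT and bright genes towards CCD. With genes split by mean level into 10 equal groups, the median difference between segments was between 0.33 and 0.53 in groups 1 to 4 and between -0.20 and -0.35 in groups 6 to 10, relative to the median gene. Each segment difference below is DCT/CNT minus CCD in log2 units relative to the median gene, whose own difference was -0.13 in the deposited values. For a gene's other probe sets it is relative to the median probe set, also at -0.13. The test asks whether the deposited difference itself is 0. The difference is also given after quantile normalisation, which brings the arrays to one distribution. It is given as well after cyclic loess normalisation, which removes trends with level between arrays. In bulk RNA, fewer cells of a type and less RNA per cell cannot be told apart.

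The enzymes parted: Aldh1a1 and Rdh10 were far lower in DCT/CNT, and Aldh1a2 was higher there. Of the 9 members, 6 were called lower in DCT/CNT and 1 higher (limma, Benjamini-Hochberg adjusted p under 0.05 over all genes). Among all genes 47% were called lower and 30.4% higher, 77.4% together, so that a count of 7 called members lies near the background. After quantile normalisation 5 members were lower and 3 higher, against 31.6% and 33% of all genes, and after cyclic loess 5 and 3, against 33.1% and 33.3%. The median difference of the members was -0.16 and the median of their absolute differences 0.58, against 0 and 0.39 over all genes.

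**Figure D1:**
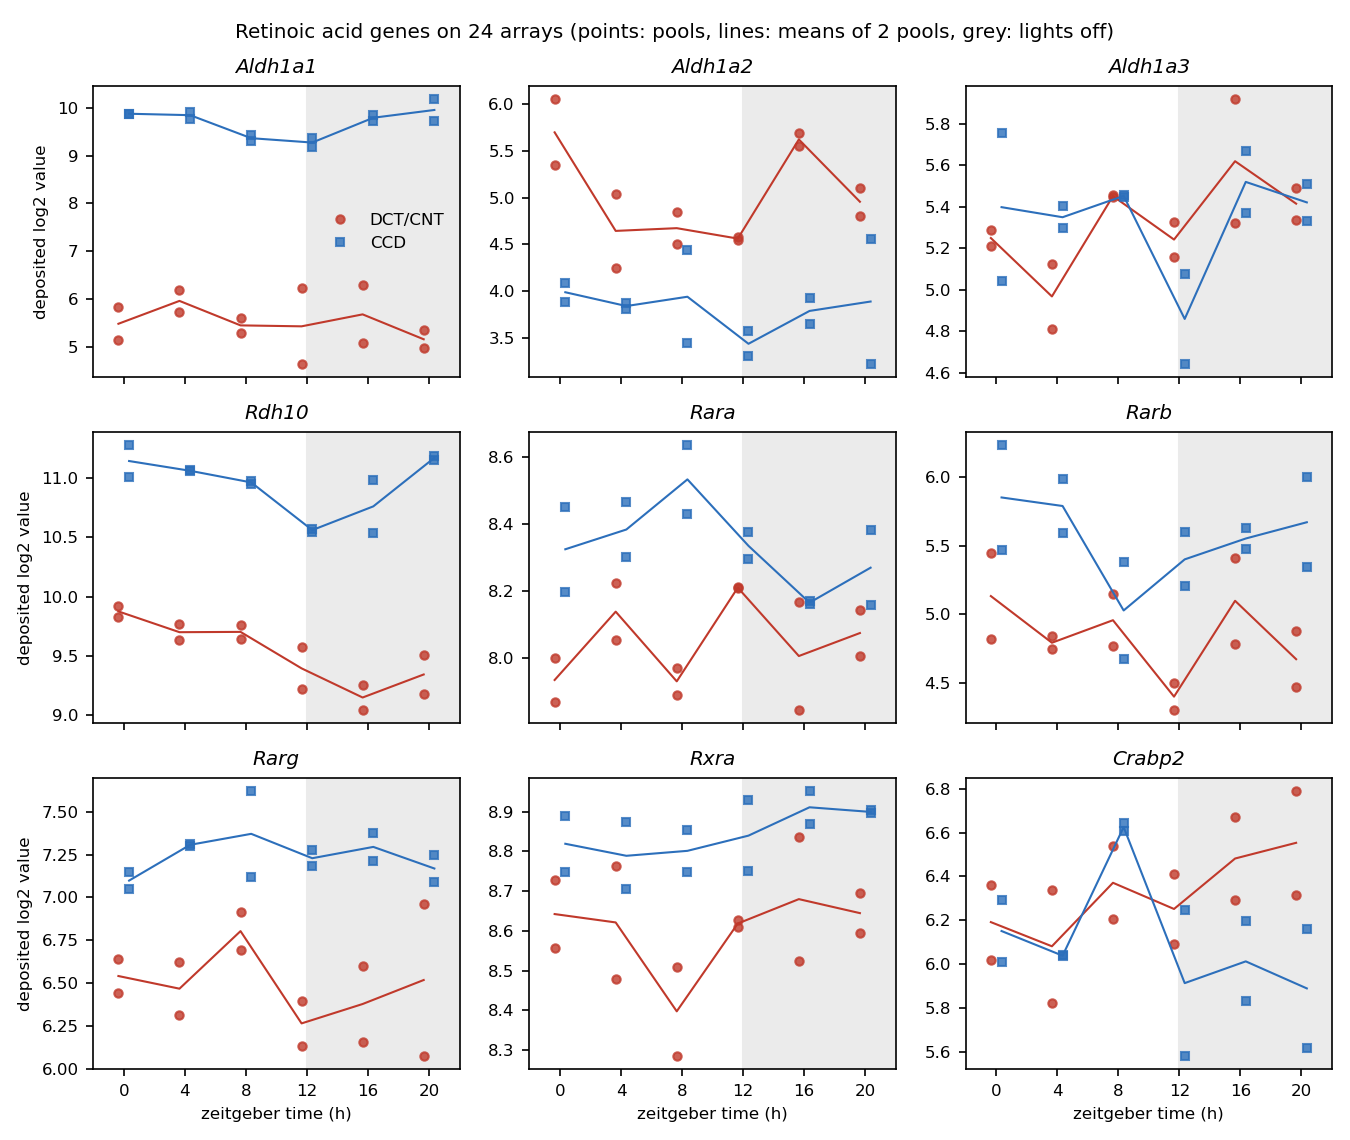
Deposited log2 value (vertical axes, each with its own range) of the 9 members against zeitgeber time in h, for DCT/CNT (red circles) and CCD (blue squares). Points are single pools, lines join the means of 2 pools, and grey marks lights off; the 12 DCT/CNT arrays lie below all 12 CCD arrays for Aldh1a1, Rdh10 and Rarg.

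Rdh10 oxidises retinol to retinal, the rate-limiting step on the way to retinoic acid in the mouse embryo. Its values were 9.04 at lowest, 9.60 at the median and 9.92 at highest over the 12 DCT/CNT arrays, and 10.54, 11.00 and 11.28 over the 12 CCD arrays. Every DCT/CNT array was below every CCD array at all 6 times. The difference was -1.29 (SE 0.06, 95% interval -1.43 to -1.15), a level 2.44-fold lower in DCT/CNT, with an adjusted p of 3.56e-11 (limma). After quantile normalisation it was -0.97 and after cyclic loess -0.97, and the arrays stayed separate under both. Within its level group of genes 1.48% were lower still. The dimmer Rdh10 probe set was lower as well, by -0.63 (adjusted p 2.47e-06 over all probe sets, limma), but its arrays overlapped between the segments. The difference by time ran from -1.04 at ZT12 to -1.70 at ZT20.

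Aldh1a1 makes retinoic acid from retinal and also oxidises other aldehydes. Its values were 4.63, 5.47 and 6.28 (lowest, median, highest) in DCT/CNT and 9.19, 9.76 and 10.19 in CCD. The groups were far apart, with the highest DCT/CNT array well below the lowest CCD array. The difference was -4.04 (SE 0.17, 95% interval -4.41 to -3.68), which is 16.5-fold lower in DCT/CNT (adjusted p 1.41e-11, limma). It was -4.04 after quantile normalisation and -3.82 after cyclic loess. No gene of the 18194 had a more negative difference in the deposited or quantile normalised values, where the next was the iron-carrier binding protein gene Lcn2 at -3.86 and -3.99. After cyclic loess Lcn2 at -4.03 and Scel at -3.96 were lower. By absolute size 5 genes exceeded Aldh1a1 in the deposited values, all higher in DCT/CNT, and the largest was Slc12a3.

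At each of the 6 times Aldh1a1 was lower in DCT/CNT, by -3.73 at ZT12 to -4.68 at ZT20. The DCT/CNT pools varied more than the CCD pools: mean 5.52 ± 0.54 in DCT/CNT and 9.69 ± 0.30 in CCD (SD, n = 12 arrays each). In DCT/CNT the pools of ZT12 had 6.22 and 4.63 and those of ZT16 had 6.28 and 5.07. The first of each pair, the higher in Aldh1a1, was the lower in Slc12a3, with 11.32 and 12.08 at ZT12 and 8.48 and 12.09 at ZT16. Over the 12 DCT/CNT arrays Aldh1a1 correlated with the mean of 9 DCT markers at r = -0.56, a description over arrays that share labels and dissection. Other marker lists had r of -0.65 (thick ascending limb), 0.57 (endothelial), 0.38 (principal cell) and -0.14 (CNT), so the DCT list does not stand alone. The part of dissection in the Aldh1a1 level of single DCT/CNT pools was not tested. The near-identical paralog Aldh1a7, chosen after its values were seen, averaged 5.93 ± 0.65 in DCT/CNT and 8.76 ± 0.22 in CCD (SD, n = 12 arrays each). Its difference was -2.70 (adjusted p 7.84e-13, limma). In the daily rhythm test given below, Aldh1a7 passed in DCT/CNT (amplitude 0.63, peak ZT 4.57, adjusted p 0.0251, limma). Aldh1a1 did not (amplitude 0.17, adjusted p 0.756, limma). Cross-hybridisation between these copies was not tested.

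Aldh1a2, the retinal dehydrogenase that supplies most retinoic acid to the early mouse embryo, went the other way. Its values were 4.25, 4.94 and 6.05 (lowest, median, highest) in DCT/CNT and 3.21, 3.84 and 4.56 in CCD. DCT/CNT was higher at each time, although the lowest DCT/CNT array lay below the highest CCD array. The difference was 1.34 (SE 0.16, 95% interval 1.01 to 1.68), a level 2.53-fold higher in DCT/CNT (adjusted p 3.60e-06, limma). It was 0.89 after quantile normalisation (adjusted p 0.000194, limma) and 0.92 after cyclic loess (adjusted p 0.000103, limma). Genes of its dim level group leaned towards DCT/CNT by 0.53 at the median, and 95.5% of them had a lower difference than Aldh1a2. Of 10 fibroblast and smooth muscle markers, 7 were called higher in DCT/CNT and 1 lower, against 30.4% and 47% of all genes. The mean of that list was 6.39 to 7.14 in DCT/CNT and 5.94 to 6.49 in CCD. Among them the smooth muscle myosin Myh11 was higher by 1.95 and smooth muscle actin Acta2 by 1.56, while the matrix protein gene Dcn was lower by -0.96. Within DCT/CNT the list mean and Aldh1a2 correlated at r = 0.28 over 12 arrays, and within CCD at r = 0.23. Other lists had r of 0.50 (principal cell), 0.44 (CNT), 0.33 (endothelial) and -0.47 (leukocyte) in DCT/CNT. In CCD the endothelial list had r = 0.74, so the fibroblast and smooth muscle list does not stand alone. Of 5 podocyte markers 2 were called higher and 1 lower in DCT/CNT, with list means of 6.32 to 6.81 in DCT/CNT and 6.31 to 6.68 in CCD. The part of these other cells in the Aldh1a2 difference was not tested.

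Aldh1a3, the remaining retinal dehydrogenase, had 4.81, 5.33 and 5.92 (lowest, median, highest) in DCT/CNT and 4.64, 5.39 and 5.76 in CCD. The ranges lay on top of each other. The difference was 0.12 (SE 0.09, 95% interval -0.08 to 0.31) and was not called (adjusted p 0.930, limma), while quantile normalisation gave -0.22 (adjusted p 0.0452) and cyclic loess -0.26 (adjusted p 0.0144). Its other probe sets split, with 0.48 (adjusted p 0.000521) and -0.13 (adjusted p 0.0392), so no direction can be given for Aldh1a3.

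**Figure D2:**
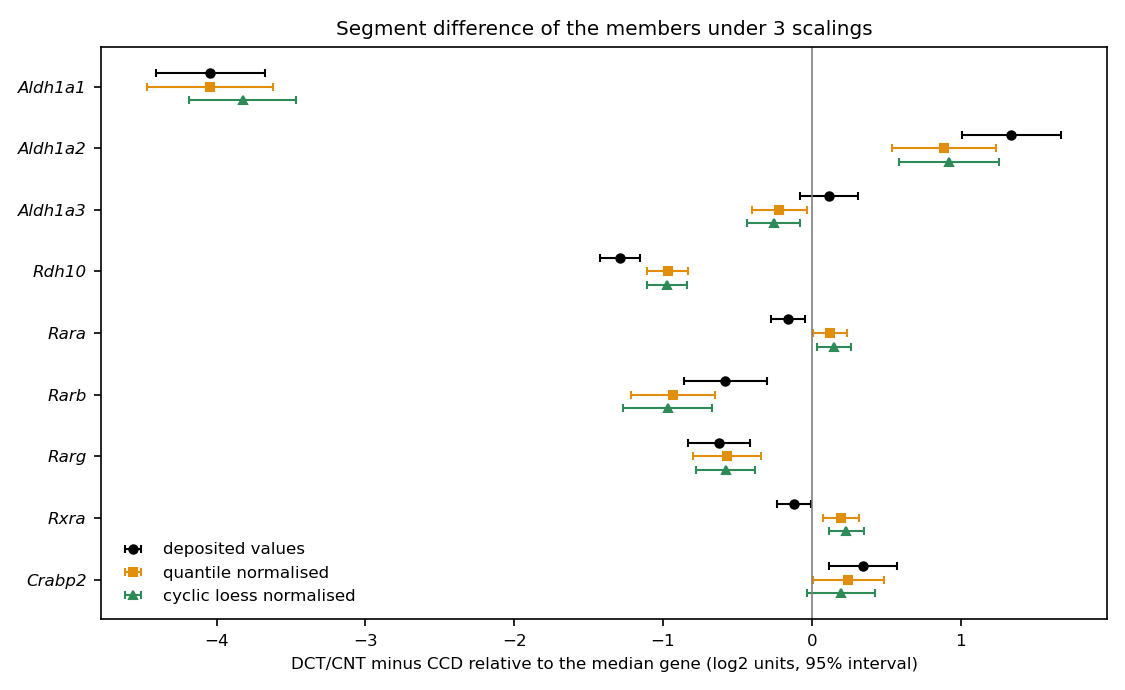
Segment difference (horizontal axis, DCT/CNT minus CCD in log2 units relative to the median gene) of the 9 members from the deposited values (black), after quantile normalisation (orange) and after cyclic loess normalisation (green). Points are limma estimates over 12 arrays per segment and bars 95% intervals; Aldh1a1, Aldh1a2, Rdh10, Rarb and Rarg keep their side of 0 under all 3 scalings, while Aldh1a3, Rara and Rxra change side.

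Among the receptors Rarb and Rarg were lower in DCT/CNT under every scaling, while the direction of Rara and Rxra depended on it. Rarg, a receptor prominent in skin and cartilage, had 6.07, 6.52 and 6.96 (lowest, median, highest) in DCT/CNT and 7.05, 7.23 and 7.62 in CCD. All DCT/CNT arrays were below all CCD arrays in the deposited values, but the groups overlapped after each rescaling. The Rarg difference was -0.62 (SE 0.10, 95% interval -0.83 to -0.42, adjusted p 3.44e-06, limma). It was -0.57 after quantile normalisation and -0.58 after cyclic loess. The other Rarg probe set had a larger difference, -1.21 (adjusted p 1.63e-08, limma), again with no overlap. Separate arrays alone were common: 3 of 9 members had all DCT/CNT arrays below all CCD arrays and 0 had them above, against 19.4% and 8.43% of all genes, or 27.8% without overlap in either direction.

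Rarb is itself a target of retinoic acid through the direct repeat in its promoter, the sequence shown above. Its values were 4.30, 4.80 and 5.45 (lowest, median, highest) in DCT/CNT and 4.67, 5.54 and 6.24 in CCD. The ranges overlapped, and the group means were lower in DCT/CNT at each time. The difference was -0.58 (SE 0.13, 95% interval -0.86 to -0.30, adjusted p 0.000145, limma), and it was near 0 at ZT8 (0.05) and between -0.33 and -0.88 at the other times. Most genes as dim as Rarb leaned towards DCT/CNT, by 0.47 at the median, and only 4.67% of them were lower than Rarb. Rescaling gave a larger difference, -0.93 after quantile normalisation and -0.97 after cyclic loess.

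Rara, the broadly expressed receptor, had 7.85, 8.03 and 8.22 (lowest, median, highest) in DCT/CNT and 8.16, 8.34 and 8.63 in CCD. Rxra, the shared partner of many nuclear receptors, had 8.29, 8.60 and 8.83 in DCT/CNT and 8.70, 8.87 and 8.95 in CCD. In both the ranges overlapped a little, with DCT/CNT mostly below. The differences were small, -0.16 for Rara (SE 0.05, adjusted p 0.000158, limma) and -0.12 for Rxra (SE 0.05, adjusted p 0.000694, limma). Both reversed after quantile normalisation, to 0.12 for Rara (adjusted p 0.0381) and 0.20 for Rxra (adjusted p 0.00438), and after cyclic loess, to 0.15 and 0.23. The other Rxra probe sets had adjusted p of 0.203 and 0.0946 and were not called. No direction can be given for Rara and Rxra.

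Crabp2, which delivers retinoic acid to RAR in the nucleus, had 5.82, 6.33 and 6.79 (lowest, median, highest) in DCT/CNT and 5.58, 6.10 and 6.64 in CCD. The ranges overlapped for the most part. The difference was 0.34 (SE 0.11, 95% interval 0.12 to 0.57), and the deposited difference did not pass the test (adjusted p 0.0744, limma). It passed with the arrays brought to equal medians (adjusted p 0.00239) but not after quantile normalisation (0.24, adjusted p 0.0592) or cyclic loess (0.20, adjusted p 0.115). By time the difference ran from -0.13 at ZT8 to 0.79 at ZT20.

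**Figure D3:**
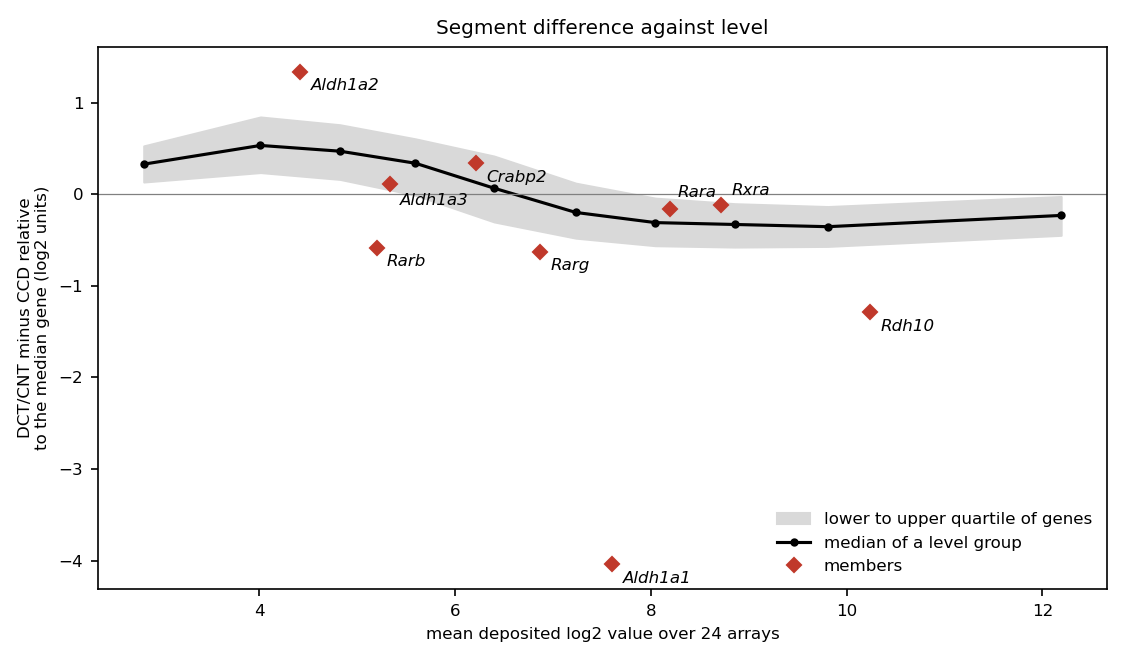
Segment difference (vertical axis, DCT/CNT minus CCD in log2 units relative to the median gene) against mean deposited log2 value over 24 arrays (horizontal axis). The black line joins the medians of 10 equal groups of genes, the grey band runs from the lower to the upper quartile and the red diamonds are the members; Aldh1a1, Rdh10, Rarb and Rarg lie below the band and Aldh1a2 above it.

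Over the day, 1 of the 9 members passed the rhythm test in DCT/CNT and 0 in CCD (limma F test on a 24 h cosine, adjusted p under 0.05), where 6.57% and 2.47% of all genes passed. That member was Rdh10. At an unadjusted p under 0.05, Rdh10 was the 1 member in each segment, against 24.5% of all genes in DCT/CNT and 14.2% in CCD. For the difference in rhythm between segments 0 of 9 members passed, none at an unadjusted p under 0.05 either, against 0.011% and 8.89% of all genes. The median fitted amplitude of the members, the distance from mean to peak, was 0.17 log2 units in DCT/CNT and 0.19 in CCD, against 0.13 and 0.10 over all genes. A fitted amplitude cannot be negative, so noise raises it: that of Aldh1a1 in DCT/CNT was 0.17 with an SE of 0.16. These medians were not tested.

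Rdh10 in DCT/CNT was highest at ZT0 and lowest at ZT16. Its 2 pools had 9.92 and 9.83 at ZT0, 9.63 and 9.77 at ZT4, 9.64 and 9.76 at ZT8, 9.57 and 9.22 at ZT12, 9.04 and 9.26 at ZT16, and 9.18 and 9.51 at ZT20. Both ZT0 pools exceeded all later ones, the pools of ZT4 and ZT8 overlapped, and the pools of ZT12, ZT16 and ZT20 overlapped but all lay below the earlier times. The fitted amplitude was 0.33 (SE 0.07), with a peak at ZT 3.59, a swing from trough to peak of 1.57-fold and an adjusted p of 0.0167 (limma). The call was lost without the first ZT16 pool of DCT/CNT (adjusted p 0.0538) and kept in the other 23 of 24 omissions of an array. It was also lost without all arrays of ZT0 (adjusted p 0.0583) or ZT16 (0.127), with the probe sets averaged (0.109), with the test over group means (0.0711) and with DCT/CNT fitted alone (0.0865).

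In CCD the Rdh10 pools had 11.28 and 11.01 at ZT0, 11.06 and 11.07 at ZT4, 10.98 and 10.95 at ZT8, 10.55 and 10.57 at ZT12, 10.99 and 10.54 at ZT16, and 11.15 and 11.19 at ZT20. The ZT12 pools were low, the ZT16 pools differed from each other, and those of ZT20 and ZT0 overlapped at the top. The amplitude was 0.28 (SE 0.07) with a peak at ZT 0.364 and a swing of 1.47-fold, and it missed the threshold (adjusted p 0.0676, limma). It passed in CCD with array weights (adjusted p 0.0232), an intensity trend (0.0306) and dim genes left out (0.0388). The rhythm difference between DCT/CNT and CCD was not called either (adjusted p 0.572, limma), with an amplitude of 0.25 log2 units for the difference of the fitted curves. The dimmer probe set of Rdh10 did not pass in DCT/CNT (amplitude 0.16, adjusted p 0.614) or in CCD (0.35, adjusted p 0.258). It shared the low at ZT12 in CCD, with 7.41 and 7.47, and the high at ZT20, with 8.39 and 8.52. In DCT/CNT the probe sets disagreed at ZT0 and ZT20. At ZT0, where the brighter one was highest, the dimmer one had 7.02 and 7.33, a mean of 7.17 against 7.20 over its DCT/CNT arrays, and its highest mean was at ZT20, with 7.51 and 7.44.

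**Figure D4:**
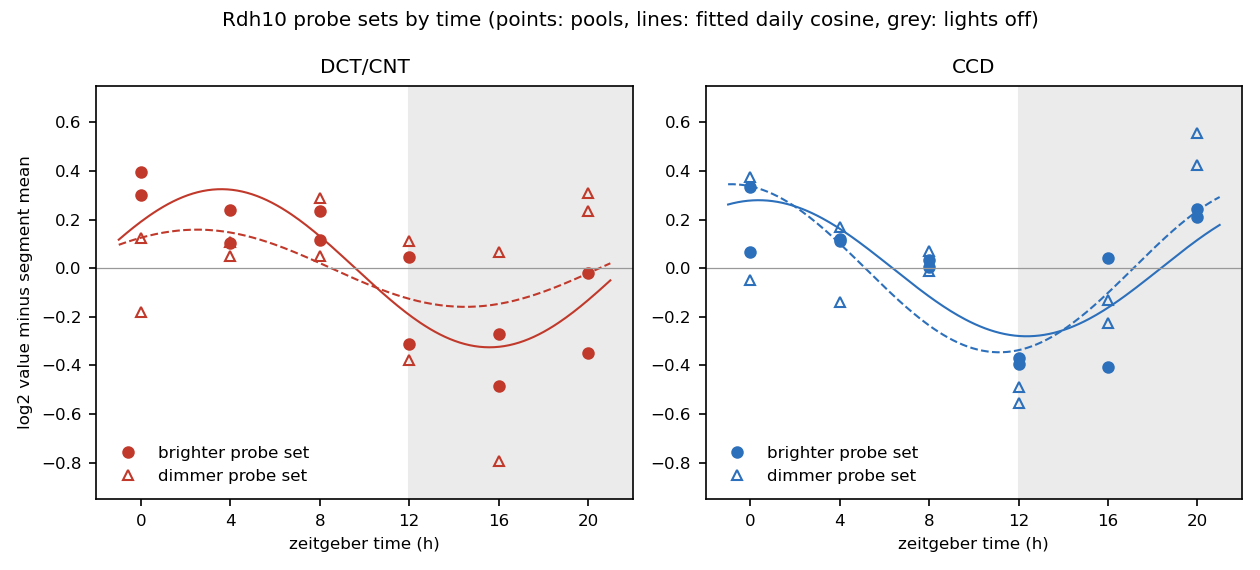
Rdh10 log2 value minus the segment mean of its probe set (vertical axes) against zeitgeber time in h, for DCT/CNT (left) and CCD (right). Filled circles are pools of the brighter probe set and open triangles of the dimmer one, solid and dashed lines their fitted 24 h cosines, and grey marks lights off; both probe sets dip at ZT12 in CCD, while in DCT/CNT they part at ZT0, where the brighter one is high and the dimmer one near its mean, and at ZT20, where the brighter one lies at or below its mean and the dimmer one above.

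List means of other cell markers also differed between times in DCT/CNT, though no list mean was tested. The mean of 9 intercalated cell markers there was 11.13 at ZT0, 11.11 at ZT4, 11.24 at ZT8, 11.01 at ZT12, 10.91 at ZT16 and 10.95 at ZT20. Over the 12 DCT/CNT arrays it correlated with Rdh10 at r = 0.74, and over the 12 CCD arrays at r = -0.15. Of these 9 markers 2 passed the DCT/CNT rhythm test, against 6.57% of all genes. They were Kit (adjusted p 0.00666, limma) and Hmx2 (adjusted p 0.0260, limma), peaking at ZT 5.26 and ZT 5.13. Hmx2 also passed in CCD (peak ZT 5.49, adjusted p 0.0392, limma). Car2, not called in DCT/CNT, had its fitted peak there at ZT 19.6 (adjusted p 0.589, limma). The mean of 15 proximal tubule markers ran opposite to the intercalated mean and further. It was 7.48, 7.23 and 7.16 at ZT0, ZT4 and ZT8 and 8.66, 7.89 and 8.07 at ZT12, ZT16 and ZT20. Its ZT0 pools lay apart, at 7.95 and 7.01. The mean of 5 podocyte markers was 6.42 to 6.48 at the first 3 times and 6.67 to 6.68 at the last 3. In these 2 lists, 1 of 15 proximal tubule and 1 of 5 podocyte markers passed the DCT/CNT rhythm test. Over the 12 DCT/CNT arrays these lists correlated with Rdh10 at r = -0.45 (proximal tubule) and r = -0.54 (podocyte). Over the 12 CCD arrays the values were -0.30 and -0.45. The endothelial list had r of 0.35 in DCT/CNT and 0.72 in CCD, and the fibroblast and smooth muscle list -0.11 and 0.50. The part of these other cells in the Rdh10 rhythm was not tested.

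The other 8 members gave adjusted p of 0.212 to 0.838 in DCT/CNT and 0.414 to 0.881 in CCD. Aldh1a2 had the largest amplitude of the members in DCT/CNT, 0.45 (SE 0.17, adjusted p 0.212, limma), with high pools at ZT0 (5.34 and 6.05) and ZT16 (5.55 and 5.70). At ZT20, between these times, its pools had 4.80 and 5.11, and without ZT20 the fit passed (amplitude 0.79, adjusted p 0.0324). Aldh1a1 had the largest amplitude in CCD, 0.35 (SE 0.16, adjusted p 0.527, limma). Its CCD pools were lowest at ZT12 (9.19 and 9.37) and ZT8 (9.31 and 9.43), and all other CCD pools lay at 9.73 or above. With CCD fitted alone, where the larger DCT/CNT spread does not enter, Aldh1a1 passed (adjusted p 0.0440).

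The genes whose 12 group means ran most like a member's were named for the 3 members with the smallest adjusted p in the segment test. Pearson's r over 12 group means is a description. All these genes were lower in DCT/CNT as well, so the segment step alone can give a high r. It does not show that these genes share a member's course over the day. For Aldh1a1 they were Nop10, Anxa4 and Kctd10 (each r = 0.997). For Rdh10 they were Atp2c1 (r = 0.993), Npnt (r = 0.992) and Rogdi (r = 0.991). For Rarg they were Med25 (r = 0.985), Ddx10 (r = 0.983) and Fbxo33 (r = 0.982). The differences of these genes were smaller than that of Aldh1a1: Kctd10 was lower by -1.32 and Nop10 by -0.79.

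The other genes of the pathway were held in 7 lists, 94 genes of which 80 were measured. Of these 80 genes, 20 were called higher and 38 lower in DCT/CNT, 7 passed the rhythm test in DCT/CNT, 3 in CCD and 0 in the difference. The shares of all genes called stand above.

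**Figure D5:**
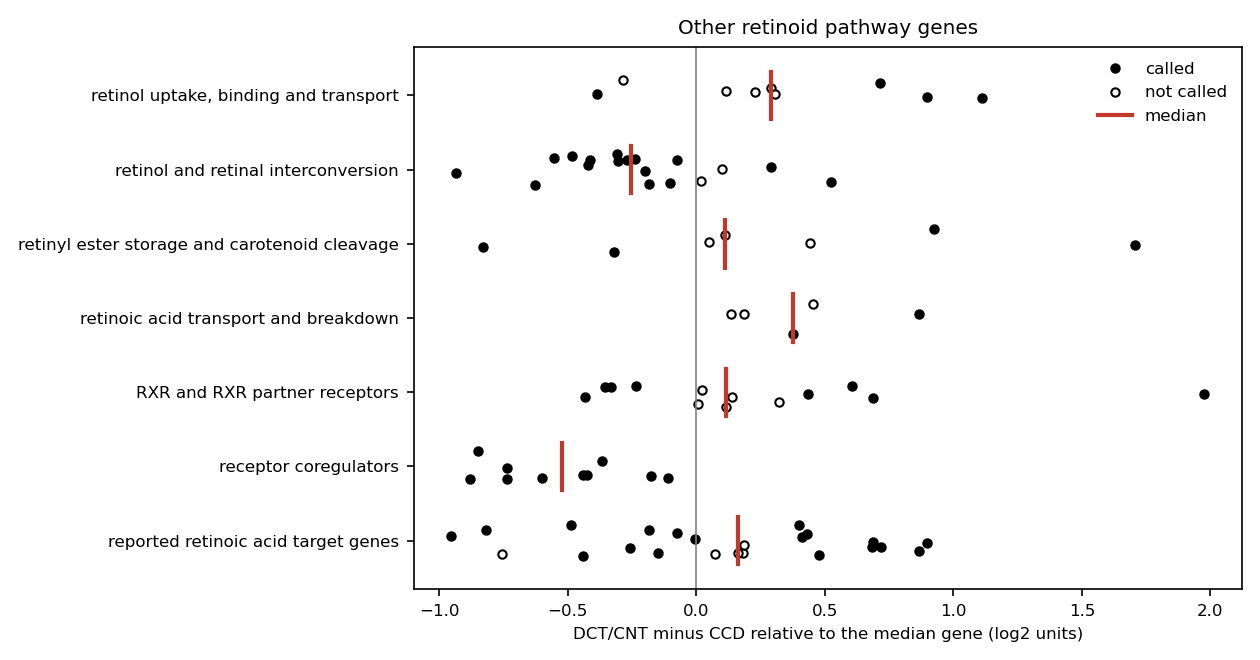
Segment difference (horizontal axis, DCT/CNT minus CCD in log2 units relative to the median gene) of the measured genes in 7 pathway lists. Each point is a gene, filled where the deposited difference was called (limma, adjusted p under 0.05) and open where not, and red bars are list medians. The 10 coregulators all lie below 0 in the deposited values, as did most genes of their level groups. Vdr stands out among the RXR partners at 1.98.

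Of 9 genes for retinol uptake and binding, 3 were called higher in DCT/CNT and 1 lower. The plasma retinol carrier Rbp4 was higher by 1.11 (SE 0.08), its membrane receptor Stra6 by 0.90 (SE 0.07) and the related receptor Stra6l by 0.72 (SE 0.10). These genes were dim, with CCD means of 3.52, 3.83 and 2.89. They lay in level groups 1 and 2, where 51.3% and 68.7% of all genes were called higher. Cubn, an endocytic receptor of the proximal tubule, was lower by -0.38 (SE 0.15). These 4 kept their signs after quantile and loess normalisation (quantile 0.61, 0.39, 0.32 and -0.64). The proximal tubule list had 6 of 15 genes called lower, against 47% of all genes, and a median difference of 0.09. After quantile normalisation 2 of its genes were called lower and 2 higher. The list means were 7.01 to 8.69 in DCT/CNT and 7.19 to 8.84 in CCD. The part of proximal tubule in the Cubn difference was not tested.

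Of 18 measured genes for the interconversion of retinol and retinal, 14 were called lower in DCT/CNT and 2 higher, and after quantile normalisation 9 and 3. Adh1, an alcohol dehydrogenase that oxidises retinol, had a mean of 12.18 in DCT/CNT and 13.24 in CCD and was lower by -0.94 (SE 0.04, quantile -0.85). Dhrs7 was lower by -0.63 (SE 0.06, quantile -0.36) and Rdh1, dim with a mean of 2.65 over all arrays, by -0.24 (SE 0.05, quantile -0.51). Rdh14 was lower by -0.27 in the deposited values and at 0.03 after quantile normalisation. Retinol dehydrogenase Rdh11 passed the rhythm test in DCT/CNT with an amplitude of 0.48 and a peak at ZT 3.63 (adjusted p 0.00366, limma), close in time to the Rdh10 peak there. Adh7 also passed in DCT/CNT, with a peak at ZT 14.8 (adjusted p 0.0369, limma). In CCD Rdh9 (amplitude 0.72, peak ZT 9.43, adjusted p 0.0159) and Adh1 (amplitude 0.20, peak ZT 20.2, adjusted p 0.0340) passed. Rdh9 was dim, with a mean of 3.81 over all arrays.

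Of 7 genes for retinyl ester storage and carotenoid cleavage, 2 were called higher and 2 lower. Lipoprotein lipase Lpl was higher by 1.71 (SE 0.18) and the carotene cleaving enzyme Bco1 by 0.93 (SE 0.06). The esterase Ces1d was lower by -0.83 (SE 0.05), and these 3 kept their signs under both normalisations. Dgat1 was lower by -0.32 and at -0.02 after quantile and 0.01 after loess normalisation. Ces1d had a rhythm in both segments, with an amplitude of 0.57 and a peak at ZT 20.1 in DCT/CNT (adjusted p 1.69e-06, limma) and 0.57 and ZT 18.5 in CCD (adjusted p 1.92e-06, limma).

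Of 5 genes for retinoic acid transport and breakdown, 2 were called higher in DCT/CNT and 0 lower. Cyp26a1, which degrades retinoic acid and is itself induced by it, had a mean of 4.42 in DCT/CNT and 3.68 in CCD. It was higher by 0.86 (SE 0.12), by 0.36 after quantile and 0.44 after loess normalisation (adjusted p 0.0103 and 0.00282, limma). Among the other measured genes of the list, the related enzyme Cyp26b1 had a difference of 0.19 (adjusted p 0.744, limma) and Cyp2c39 one of 0.14 (adjusted p 0.902, limma), with -0.23 after quantile normalisation (adjusted p 0.0123). Crabp1 was called higher at 0.38, but its value was -0.10 after quantile normalisation. Fabp5, another retinoic acid carrier, had 0.45 (adjusted p 0.0655) and passed after quantile normalisation with 0.68 (adjusted p 0.000762).

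Of 13 other RXR and RXR partner receptors, 4 were called higher and 4 lower, and after quantile normalisation 4 and 1. The vitamin D receptor Vdr had a mean of 11.32 in DCT/CNT and 9.47 in CCD and was higher by 1.98 (SE 0.05), with no overlap of arrays. It also passed the rhythm test in DCT/CNT, with an amplitude of 0.32 and a peak at ZT 20.4 (adjusted p 0.00453, limma). Rxrg was higher by 0.69 (SE 0.05) and the oxysterol receptor Nr1h3 by 0.60 (SE 0.09), both with the same sign after either normalisation. Thyroid hormone receptor Thra was lower by -0.43 (SE 0.09) but did not pass after quantile normalisation (-0.10, adjusted p 0.428).

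All 10 measured coregulators were called lower in DCT/CNT and 0 higher, with a median of -0.52. They lay in level groups 6 to 10, where 60.4% to 85.2% of all genes were called lower, so the count lies near that of genes as bright. After quantile normalisation the median was -0.20, with 5 lower and 1 higher. The acetyltransferase Crebbp was lower by -0.85 (SE 0.05, quantile -0.55), the corepressor subunit Tbl1xr1 by -0.88 (SE 0.05, quantile -0.55), the coactivator Ncoa3 by -0.74 (SE 0.06, quantile -0.41) and the mediator subunit Med1 by -0.60 (SE 0.04, quantile -0.29). In DCT/CNT the corepressor Nrip1 passed the rhythm test with a peak at ZT 0.533 (amplitude 0.32, adjusted p 0.0123, limma) and Ncoa2 with a peak at ZT 4.90 (amplitude 0.21, adjusted p 0.0249, limma).

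Of 23 genes reported as retinoic acid targets in other tissues, 9 were called higher and 9 lower in DCT/CNT, and after quantile normalisation 7 and 5. The clock-linked repressor Bhlhe40 was lower by -0.95 (SE 0.10, quantile -0.68) and Nrip1 by -0.44 (SE 0.06), where quantile normalisation left -0.12 and no call. Rarres1, dim with a mean of 2.83 over all arrays, was higher by 0.72 (SE 0.06, quantile 0.41), and Stra6 and Cyp26a1 were higher as given above. Of these targets Nrip1 and the zinc finger gene Tshz1 (amplitude 0.27, peak ZT 8.04, adjusted p 0.0231, limma) passed the rhythm test in DCT/CNT, and 0 passed in CCD.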

How the data were processed

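The authors deposited log2 values of 45101 probe sets on 24 arrays, made with RMA per the submitters' processing notes, with no version given in the sources used here. The labels do not say whether both segments were normalised in 1 run. Of the probe sets, 34958 name 1 gene symbol, 932 several and 9211 none, and 34754 of the first matched RefSeq genes (GRCm38.p6) by gene number. Each of 18194 genes was represented by its brightest probe set, with no filter. limma 3.58.1 in R 4.3.3 fitted a 24 h cosinor to both segments together, tested by moderated F tests, and a mean per group for the segment difference. P-values were Benjamini-Hochberg adjusted over all genes and called at 0.05. Arrays carry no counts, so 2 pools per group set the precision. Scripts were tested on simulated data. Deviations of same-numbered pools at a time correlated across segments with r of -0.03 to 0.09, 0 of 6 pairs over 0.1. Each array was amplified on its own, so a low r cannot show whether same-numbered pools share animals. The members, lists and tests were chosen with earlier results of these data known. Named genes were all members, up to 4 per list in the segment test and 2 per rhythm test by smallest adjusted p, and the 3 most correlated genes of 3 members. Alternatives rescaled the arrays, filtered dim genes, changed the probe set rule or variance model, blocked by pool number and left out arrays or times.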

Additional observations from a re-analysis of the deposited data

How the results depend on the processing

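The segment differences of Aldh1a1, Aldh1a2, Rdh10, Rarb and Rarg kept their direction and their call under each alternative that held them; the filter on dim genes removed Aldh1a2, Aldh1a3 and Rarb. Of the members 3 reversed: Aldh1a3 to -0.22 (quantile) and -0.26 (cyclic loess), Rara to 0.12 (quantile), 0.15 (cyclic loess) and 0.075 with dim genes left out, and Rxra to 0.20, 0.23 and 0.12 under the same 3 settings. Testing the rescaled values against the median gene, chosen after seeing the data, gave the same sizes with adjusted p of 0.0367 and 0.0141 for Aldh1a3, 0.0534 and 0.0217 for Rara, and 0.00612 and 0.00163 for Rxra. Leaving out dim genes moves the median gene to which these values refer. With equal medians Rara (adjusted p 0.196) and Rxra (0.60) were not called, nor was Rxra against the median gene (0.0581). Members higher in DCT/CNT numbered 2 with equal medians, against the median gene, without ZT8 and in quantile normalised values against the median gene. They numbered 3 after quantile, cyclic loess and cyclic loess against the median gene, and 0 with dim genes left out, where 1416 of all genes were higher. Leaving out 1 array gave 1 to 2. Crabp2 passed without the second ZT4 or second ZT20 pool of DCT/CNT, or the second ZT12 or first ZT20 pool of CCD (lowest adjusted p 0.0246).

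Members with a rhythm in DCT/CNT numbered 0 with all probe sets averaged (Rdh10 adjusted p 0.109), with group means tested by F (0.0711), with the segment fitted alone (0.0865) and without ZT0 or ZT16. They numbered 2 without ZT20, and 0 to 1 without single arrays. In CCD 1 member passed with dim genes left out (Rdh10, 0.0388), array weights (Rdh10, 0.0232), an intensity trend (Rdh10, 0.0306) and the segment fitted alone (Aldh1a1). Over all genes, the DCT/CNT count of 1195 became 748 with array weights, 450 with group means, 226 with the segment alone, and 659, 565, 745, 594, 676 and 788 without ZT0, ZT4, ZT8, ZT12, ZT16 and ZT20. The CCD count of 449 became 819 with array weights, 718 with an intensity trend, 117 with group means, 156, 180, 132, 181, 221 and 255 without the times in the same order, and 242 to 477 without single arrays. Rhythm differences over all genes, 2 at first, numbered 1 after quantile normalisation and without ZT0, ZT8, ZT12 or ZT20, 5 with dim genes left out, 4 with an intensity trend or all probe sets averaged, and 2 to 4 without single arrays. Fewer samples enter the fits without a time; other causes were not tested. With the pool number as a replicate block 1139 genes had a rhythm in DCT/CNT and 403 in CCD, Rdh10 kept its DCT/CNT call (adjusted p 0.0212), and no member changed its call in any of the 4 tests. Signal over background was not in the deposited values, so how near dim members and dim list genes lie to it is not known here.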
